A study of Mus musculus with 6 samples.

Results

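The HoxA cluster is a run of homeobox genes on mouse chromosome 6, and its expression was described here in LSK cells labelled Tet1 KO and in wild-type LSK cells. The genes sought were Hoxa2, Hoxa3, Hoxa4, Hoxa5, Hoxa6, Hoxa7, Hoxa9, Hoxa10 and Hoxa11, a list chosen with earlier results of these data known. Every probe set whose platform annotation gave exactly 1 of these symbols was taken, a step that used no measured value. Of the 9 genes, 8 had such a probe set, out of 18193 genes with one on the array. These 8 genes had 15 probe sets, of 45037 fitted: 4 for Hoxa3, 2 each for Hoxa4, Hoxa5, Hoxa9 and Hoxa10, and 1 each for Hoxa2, Hoxa7 and Hoxa11. No probe set was listed for Hoxa6 alone, so it was not analysed here.

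HOX genes encode transcription factors that bind DNA through a homeodomain. They lie in clusters in which gene order follows the order of their expression along the body axis, from the anterior genes such as Hoxa2 to the posterior genes such as Hoxa11. In bone marrow, Hoxa9 and Hoxa10 are known for high expression in stem and early progenitor cells and for their decline as blood cells mature, and HOXA9 with its partner MEIS1 is a known driver of acute myeloid leukaemia. The MLL methyltransferase, encoded by Kmt2a, keeps the cluster active, Polycomb complexes keep it silent, and Tet1 oxidises 5-methylcytosine, a base that lies mostly in CpG dinucleotides.

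The study compared 3 LSK samples labelled Tet1 KO with 3 LSK samples labelled WT, all sorted by flow cytometry from bone marrow of 6-month-old mice of the strain labelled CD57BL/6, with 1 Affymetrix array per sample. LSK cells are lineage-negative and positive for Sca-1 and Kit, a gate that holds stem cells and multipotent progenitors. Whether the samples came from separate mice is not stated, so each p-value rests on the spread among these samples, which may be technical in part. Neither the allele nor the deleted part of Tet1 is given in the sources used here. In bulk samples, fewer cells that express a gene and less of its RNA per cell cannot be told apart.

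Promoter sequence is shown for 3 of the genes because they span the range of CpG content in the cluster and because CpG is where the substrate of Tet1 lies. The sequences are the 250 bases before the annotated start, from RefSeq on GRCm38.p6, minus strand, written 5′ to 3′ with CpG in capitals: Hoxa2 at chr6:52164832-52165081, Hoxa5 at chr6:52204588-52204837 and Hoxa9 at chr6:52227371-52227620.
Hoxa2: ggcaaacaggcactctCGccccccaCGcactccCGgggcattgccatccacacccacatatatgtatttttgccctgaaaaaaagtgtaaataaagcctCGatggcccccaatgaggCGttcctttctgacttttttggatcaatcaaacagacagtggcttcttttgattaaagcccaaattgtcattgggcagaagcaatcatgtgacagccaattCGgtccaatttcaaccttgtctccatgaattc
Hoxa5: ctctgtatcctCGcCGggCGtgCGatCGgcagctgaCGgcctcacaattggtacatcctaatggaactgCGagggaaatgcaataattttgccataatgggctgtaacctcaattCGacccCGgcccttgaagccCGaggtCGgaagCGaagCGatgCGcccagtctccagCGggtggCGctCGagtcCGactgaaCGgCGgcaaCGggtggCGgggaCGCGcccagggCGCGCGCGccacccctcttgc
Hoxa9: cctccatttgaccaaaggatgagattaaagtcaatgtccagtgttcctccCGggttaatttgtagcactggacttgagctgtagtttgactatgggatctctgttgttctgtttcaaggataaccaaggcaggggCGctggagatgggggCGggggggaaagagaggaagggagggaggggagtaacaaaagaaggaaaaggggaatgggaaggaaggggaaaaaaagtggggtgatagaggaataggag
The Hoxa5 window held 28 CpG, the Hoxa2 window 6 and the Hoxa9 window 3. Counted over the same 250 bases before all 32841 annotated starts, the median was 6, with quartiles of 2 and 16, so Hoxa5 lay above the upper quartile and Hoxa9 below the median. The other windows of the cluster held 18 CpG at Hoxa3, 24 at Hoxa6, 7 at Hoxa7, 7 and 20 at the 2 starts of Hoxa10, and 13 at Hoxa11. Hoxa4 was not matched in the promoter table. Methylation was not measured on these arrays, and the counts describe sequence only.

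Before the HoxA values, 1 of the arrays stood apart from the others. Tet1 KO replicate 2 correlated with the other arrays at r of 0.936 to 0.943 over all probe sets, against 0.969 to 0.984 among the other 5 arrays. Its brightest bacterial control probe set read 4.87 (log2), against 4.21 to 4.37 on the other arrays. The HoxA differences are therefore given with and without it. Tet1 read lower in Tet1 KO at all 4 of its probe sets without overlap between the groups, and the brightest averaged 5.80 ± 0.40 in Tet1 KO and 6.81 ± 0.07 in WT (log2, SD, n = 3 each), with a limma adjusted p of 0.686 at each of the 4. Xist, which is expressed in female cells, read 3.82 on Tet1 KO replicate 3 and 4.58 on WT replicate 3, against 11.8 to 12.2 on the other arrays, so neither group came from a single mouse. All 7 measured LSK markers, Kit among them, read above the bacterial controls on every array, with list means of 9.31 to 9.48 in Tet1 KO and 9.24 to 9.56 in WT. Of the other cell types, the T-cell genes Cd3d, Cd3e and Cd3g, the B-cell gene Ms4a1, the erythroid genes Hba-a1 and Alas2, the endothelial genes Cdh5 and Kdr and the stromal genes Col3a1, Pdgfra and Lepr averaged at or below the bacterial control level of 4.39. The other measured genes of these types, and all those of granulocytes and monocytes, averaged above it. In Tet1 KO and WT, S100a8 averaged 9.26 and 8.78, S100a9 8.93 and 9.33, and Pdgfrb 7.59 and 7.84. Pecam1 averaged 7.43 and 7.48, Cd79b 7.31 and 7.73, and Klf1 6.88 and 7.02. List means were 5.30 to 5.63 in Tet1 KO and 5.34 to 5.53 in WT for 5 B-cell genes, and 4.59 to 4.90 in Tet1 KO and 4.34 to 4.49 in WT for 5 T-cell genes. All 5 T-cell genes, 6 of 7 stromal, 4 of 6 granulocyte and monocyte and 3 of 5 B-cell genes read higher in Tet1 KO by their means. So did 2 of 7 LSK, 2 of 6 endothelial and 1 of 4 erythroid genes. Of all genes 56.5% did, and of all probe sets at or below the bacterial control level 78%. The part of these cell types in the HoxA values was not tested. List means were 6.58 to 7.40 in Tet1 KO and 6.15 to 7.13 in WT for 6 granulocyte and monocyte genes, and 4.46 to 4.96 in Tet1 KO and 4.85 to 5.03 in WT for 4 erythroid genes. They were 5.52 to 5.78 in Tet1 KO and 5.55 to 5.66 in WT for 6 endothelial genes, and 4.88 to 5.16 in Tet1 KO and 4.61 to 5.16 in WT for 7 stromal genes.

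HoxA expression was read above background at Hoxa3, Hoxa5, Hoxa7, Hoxa9 and Hoxa10 in both groups. The guide was the bacterial control level of 4.39, taken from the brightest of 27 probe sets for bacterial genes on each array, averaged over the arrays. By group mean, 12 of the 15 probe sets lay above it in Tet1 KO and 10 in WT. Of all 45037 probe sets, 29086 did so in Tet1 KO and 28423 in WT. The 10 were the 4 of Hoxa3, both of Hoxa5 and Hoxa9, the probe set of Hoxa7 and 1 of Hoxa10, and they lay above it in Tet1 KO as well. Hoxa2 and 1 probe set of Hoxa4 were above it in Tet1 KO alone, while the other Hoxa4 probe set, the other Hoxa10 probe set and Hoxa11 were below it in both groups. With each array set against its own brightest bacterial control, 9 probe sets passed on all 3 Tet1 KO arrays and 10 on all 3 WT arrays. The probe set that passed in WT but not in Tet1 KO was 1452421_at of Hoxa3, which failed on Tet1 KO replicate 2. Levels of different probe sets are not ranked, since each has its own probes.

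**Figure D1:**
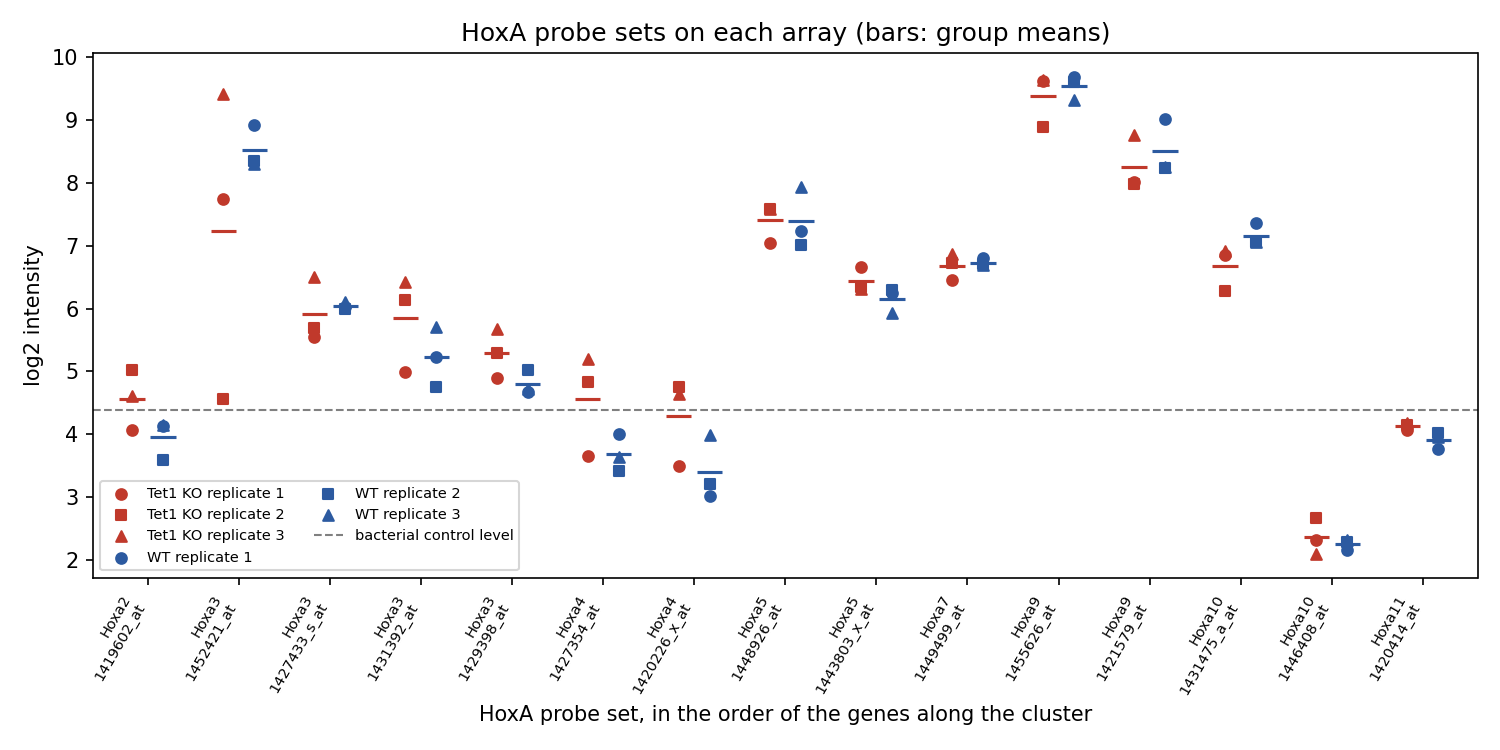
Log2 intensity of each HoxA probe set on each array, with Tet1 KO (red) to the left of WT (blue), bars at group means and a dashed line at the bacterial control level of 4.39. Hoxa9 lies far above the line on all 6 arrays, Hoxa11 below it on all 6, and 1452421_at of Hoxa3 has 1 Tet1 KO array at 4.56; heights of different probe sets are not comparable.

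No HoxA probe set passed the test between Tet1 KO and WT. With limma over all 45037 probe sets, 0 of the 15 had a Benjamini-Hochberg adjusted p under 0.05, against 0% of all probe sets, and the lowest adjusted p among the 15 was 0.686. At an unadjusted limma p under 0.05 there were also 0 of 15, against 6.81% of all probe sets, of which 3.23% were higher and 3.58% lower in Tet1 KO. The difference was positive, with Tet1 KO higher, at 9 of 15, against 57.1% of all probe sets. The median difference over the 15 was 0.11, beside 0.06 over all probe sets, on the log2 scale. Without Tet1 KO replicate 2, 0 of 15 passed at an unadjusted limma p under 0.05, against 8.01% of all probe sets, 9 of 15 differences were again positive, and the median was 0.09. Groups did not overlap at 3 probe sets, 2 with Tet1 KO higher and 1 with Tet1 KO lower, against 9.96% and 6.29% of all probe sets. Of the 2, 1 lay above the bacterial control level and 1 at or below it. Higher without overlap were 1731 of 28780 probe sets above that level and 2755 of 16257 at or below it. Lower without overlap were 2527 and 304 of them. The 10 probe sets above the bacterial control level by their mean over all 6 arrays had 4 positive differences and a median of -0.09, beside -0.04 over 28780 probe sets above it. The 5 at or below that level all had positive differences, with a median of 0.61 beside 0.16 over 16257 such probe sets, of which 78% were positive.

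At the anterior end, Hoxa2, which patterns the hindbrain and the neural crest, was near background. Its probe set 1419602_at read 4.06, 5.02 and 4.61 in Tet1 KO replicates 1, 2 and 3, against 4.13, 3.59 and 4.14 in WT replicates 1, 2 and 3. Tet1 KO replicates 2 and 3 were above all WT arrays and replicate 1 was inside their range, so the groups overlapped. The difference was 0.61, with a 95% interval of -0.08 to 1.30 (limma, unadjusted p 0.0745, adjusted p 0.686). Without Tet1 KO replicate 2, the array with the brightest bacterial control, it was 0.38 (SE 0.26). All 3 WT arrays lay below their own bacterial control, so the fold is not given.

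Hoxa3, which directs development of the thymus and the neck, had 4 probe sets that did not move together. Probe set 1452421_at read 7.74, 4.56 and 9.41 in Tet1 KO replicates 1, 2 and 3, against 8.91, 8.35 and 8.30 in WT replicates 1, 2 and 3. The Tet1 KO arrays thus lay below, far below and above the WT range, with replicate 2 at -3.96 from the WT mean. The SD was 2.46 in Tet1 KO and 0.34 in WT, the difference was -1.28, and its 95% interval ran from -3.96 to 1.40 (limma adjusted p 0.714). Without Tet1 KO replicate 2 the difference was 0.06 (SE 0.50), and without replicate 3 it was -2.37. The other Tet1 KO arrays still lay on either side of the WT range.

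The low reading was not shared by the other Hoxa3 probe sets. Probe set 1427433_s_at is annotated to the same accession, BB496114, and read 5.55, 5.69 and 6.51 in Tet1 KO replicates 1, 2 and 3, against 6.03, 5.99 and 6.10 in WT replicates 1, 2 and 3. Tet1 KO replicates 1 and 2 were below the WT range and replicate 3 above it. The difference was -0.13 (95% interval -0.77 to 0.51, limma adjusted p 0.867), or -0.013, 0.05 and -0.42 without Tet1 KO replicates 2, 1 and 3 in turn. After each probe set was centred on its own mean over the 6 arrays, the widest gap between this pair was 3.03, on Tet1 KO replicate 2. Whether this reading reflects RNA or the array was not tested.

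The remaining Hoxa3 probe sets had higher means in Tet1 KO. Probe set 1431392_at read 4.99, 6.13 and 6.43 in Tet1 KO replicates 1, 2 and 3, against 5.22, 4.75 and 5.70 in WT replicates 1, 2 and 3, and 1429398_at read 4.90, 5.29 and 5.67 in Tet1 KO, against 4.68, 5.02 and 4.71 in WT. At both, Tet1 KO replicates 2 and 3 exceeded every WT array while replicate 1 lay within the WT range. The differences were 0.62 (95% interval -0.39 to 1.64) and 0.48 (95% interval -0.07 to 1.04), with limma adjusted p of 0.687 and 0.686. Without Tet1 KO replicate 2 they were 0.48 at both probe sets. At 1431392_at the value was 0.33 without Tet1 KO replicate 3, 0.38 with WT replicate 2 left out and 1.06 without Tet1 KO replicate 1, and at 1429398_at it was 0.29 without Tet1 KO replicate 3. The pairs 1452421_at and 1427433_s_at on one side and 1431392_at and 1429398_at on the other thus gave opposite signs for 1 gene over all 6 arrays.

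Hoxa4, a gene of the anterior trunk, showed the widest positive differences of the 15. Probe set 1427354_at read 3.65, 4.83 and 5.20 in Tet1 KO replicates 1, 2 and 3, against 4.01, 3.41 and 3.64 in WT replicates 1, 2 and 3. Tet1 KO replicates 2 and 3 stood above every WT array, and replicate 1 was inside the WT range. The difference was 0.87 (95% interval -0.10 to 1.85), with an unadjusted limma p of 0.0719 and an adjusted p of 0.686. The other probe set, 1420226_x_at, read 3.49, 4.75 and 4.64 in Tet1 KO, against 3.02, 3.20 and 3.99 in WT. It had the same high and low Tet1 KO arrays and a difference of 0.89 (95% interval -0.09 to 1.87, limma adjusted p 0.686). Its name ends in x_at, which marks probes that may also match other sequences.

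The level of Hoxa4 was close to background. Only Tet1 KO replicate 3 exceeded its own brightest bacterial control, at both probe sets, and no WT array did. Probe sets of like level, meaning all others with a mean within 0.25 of it, had a median difference of 0.15 for 1427354_at and 0.16 for 1420226_x_at, and 98.8% and 99.1% of them lay below the Hoxa4 values. The same share was 96.4% at Hoxa2 and 96.0% at 1431392_at of Hoxa3. It was 0.482% at 1452421_at of Hoxa3, where Tet1 KO replicate 2 read far below the rest. These shares take no account of the spread among arrays. On Tet1 KO replicate 2, where the bacterial controls were also brightest, probe sets of like level stood 0.27 and 0.29 above their WT means, against 1.15 and 1.34 for Hoxa4. On Tet1 KO replicate 3 the like-level medians were 0.07 and 0.08, against 1.51 and 1.24 for Hoxa4. Without Tet1 KO replicate 2 the differences were 0.74 at 1427354_at and 0.66 at 1420226_x_at. They were 0.56 and 0.72 without Tet1 KO replicate 3, and 1.33 and 1.29 without Tet1 KO replicate 1, the array at the WT level.

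**Figure D2:**
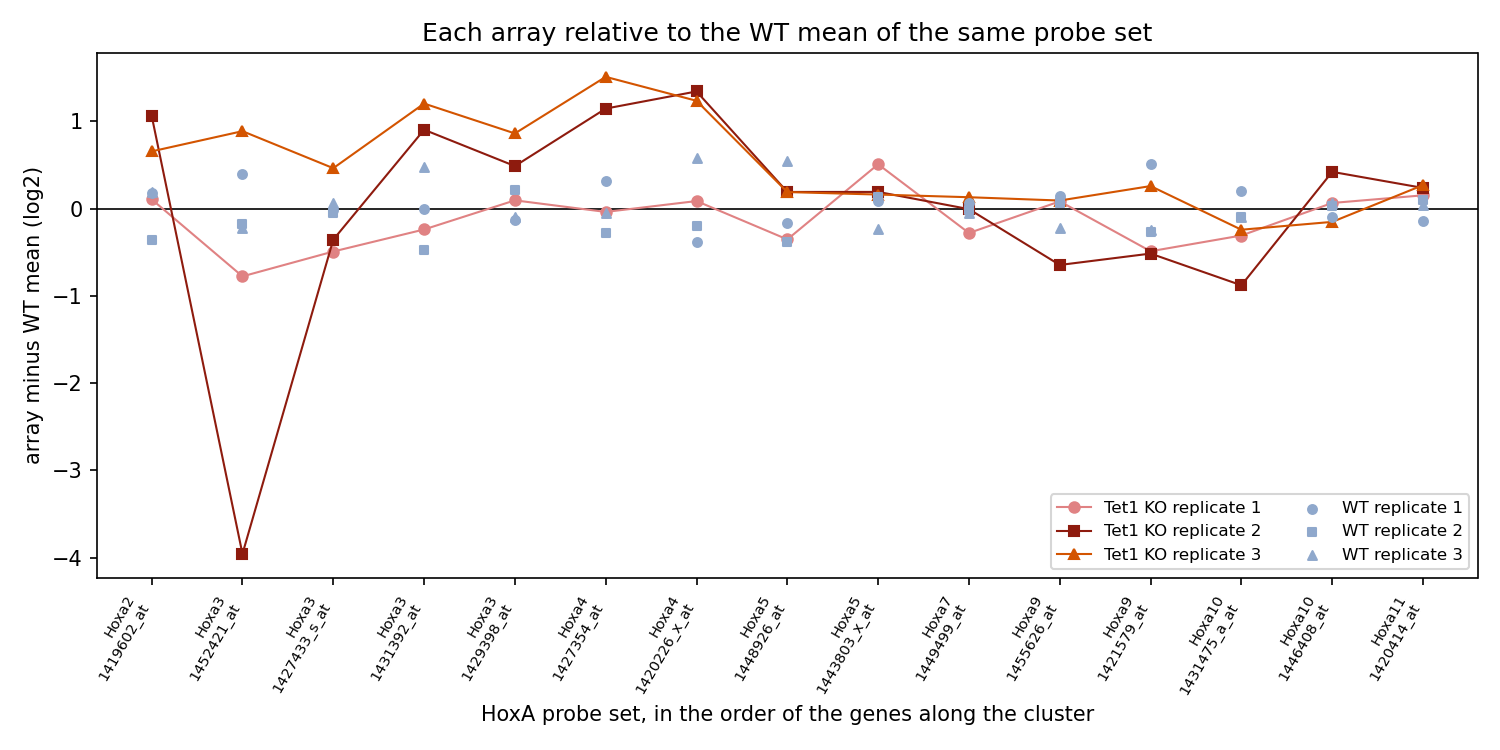
Each array minus the WT mean of the same probe set (log2), for the 15 HoxA probe sets in cluster order, with lines for the Tet1 KO arrays and pale points for the WT arrays. Tet1 KO replicates 2 and 3 lie above WT at Hoxa2, at 1431392_at and 1429398_at of Hoxa3 and at Hoxa4. Replicate 1 lies within the WT range there, at -0.24 for 1431392_at, and replicate 2 is at -3.96 for 1452421_at of Hoxa3.

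Hoxa5, a regulator of lung and axial development that also acts in blood progenitors, was above background on every array. Probe set 1448926_at read 7.04, 7.58 and 7.58 in Tet1 KO replicates 1, 2 and 3, against 7.23, 7.005 and 7.94 in WT replicates 1, 2 and 3. The ranges overlapped almost fully, with the lowest and the highest value both in WT. The difference was 0.01 (95% interval -0.69 to 0.71, limma adjusted p 0.992), an interval that spans 0.62-fold to 1.63-fold, and -0.08 without Tet1 KO replicate 2. With each array left out in turn the value ran from -0.18 without WT replicate 2 to 0.29 without WT replicate 3, so its sign was not settled. The other probe set, 1443803_x_at, read 6.66, 6.35 and 6.32 in Tet1 KO, against 6.25, 6.29 and 5.92 in WT. Every Tet1 KO array lay above every WT array, by as little as the gap between 6.32 and 6.29. The difference was 0.29 (95% interval -0.14 to 0.72, limma adjusted p 0.686), or 0.34 without Tet1 KO replicate 2. It was 0.18 without Tet1 KO replicate 1 and 0.17 with WT replicate 3 left out.

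Hoxa7, a gene of the mid trunk that is also active in leukaemias with MLL fusions, was above background on every array. Probe set 1449499_at read 6.45, 6.73 and 6.86 in Tet1 KO replicates 1, 2 and 3, against 6.80, 6.71 and 6.69 in WT replicates 1, 2 and 3. The Tet1 KO arrays lay below, within and above the narrow WT range. The difference was -0.05 (95% interval -0.44 to 0.34, limma adjusted p 0.918), or between 0.74-fold and 1.26-fold, and it was -0.07 without Tet1 KO replicate 2, 0.06 without replicate 1 and -0.14 without replicate 3. With WT replicate 1 left out it was -0.02. It changed sign to 0.04 with quantile normalization and 0.03 with cyclic loess.

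Hoxa9, which sustains stem and progenitor cells and is often highly expressed in acute myeloid leukaemia, was far above background in both groups. Probe set 1455626_at read 9.62, 8.89 and 9.63 in Tet1 KO replicates 1, 2 and 3, against 9.69, 9.61 and 9.32 in WT replicates 1, 2 and 3. Tet1 KO replicate 2 was the only Tet1 KO array outside the WT range, and it was the array that stood apart. The difference was -0.16 (95% interval -0.74 to 0.43, limma adjusted p 0.822), and 0.09 (SE 0.16) without that array, so its sign rested on it. It was -0.28 without either of the other Tet1 KO arrays, -0.26 with WT replicate 3 left out and -0.08 with WT replicate 1 left out. Probe set 1421579_at read 8.01, 7.99 and 8.76 in Tet1 KO, against 9.01, 8.23 and 8.26 in WT. Tet1 KO replicates 1 and 2 were below all WT arrays and replicate 3 was inside their range. The difference was -0.25 (95% interval -0.99 to 0.49, limma adjusted p 0.779), or -0.11 without Tet1 KO replicate 2. It was -0.13 when Tet1 KO replicate 1 was left out and -0.50 when replicate 3 was. With WT replicate 1 left out it was 0.01, and with WT replicate 2 left out it was -0.38. Probe sets of like level had median differences of -0.10 and -0.14. The intervals of both Hoxa9 probe sets leave room for as little as 0.60-fold and 0.50-fold and as much as 1.35-fold and 1.40-fold.

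Hoxa10, the neighbour of Hoxa9 and a regulator of progenitor growth, had the only negative difference without overlap. Probe set 1431475_a_at read 6.85, 6.28 and 6.92 in Tet1 KO replicates 1, 2 and 3, against 7.36, 7.06 and 7.06 in WT replicates 1, 2 and 3. The highest Tet1 KO array was below the lowest WT array, and Tet1 KO replicate 2 was the lowest of all. Means were 6.68 ± 0.35 in Tet1 KO and 7.16 ± 0.17 in WT (SD, n = 3 each). The difference was -0.48 (95% interval -0.998 to 0.05), or 0.72-fold, with an unadjusted limma p of 0.0680 and an adjusted p of 0.686. It was -0.27 (SE 0.16) without Tet1 KO replicate 2, which is under the full value by more than 1.5 times, and probe sets of like level had a median of -0.11. The other Hoxa10 probe set, 1446408_at, read 2.31, 2.67 and 2.10 in Tet1 KO, against 2.15, 2.28 and 2.31 in WT. These values were below every bacterial control maximum and below most of the 44 olfactory receptor probe sets, of which 9.09% were lower, and they give no reading of Hoxa10.

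Hoxa11, a limb and kidney patterning gene at the posterior end, was below the bacterial control level on all arrays. Probe set 1420414_at read 4.07, 4.15 and 4.18 in Tet1 KO replicates 1, 2 and 3, against 3.77, 4.01 and 3.96 in WT replicates 1, 2 and 3. All Tet1 KO arrays were above all WT arrays, as at 2755 of the 16257 probe sets at or below that level. The difference was 0.22 (95% interval -0.13 to 0.57, limma adjusted p 0.686), or 0.21 without Tet1 KO replicate 2. Probe sets of like level had a median difference of 0.16, and with cyclic loess the Hoxa11 value was 0.08. Its level could not be told from background.

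**Figure D3:**
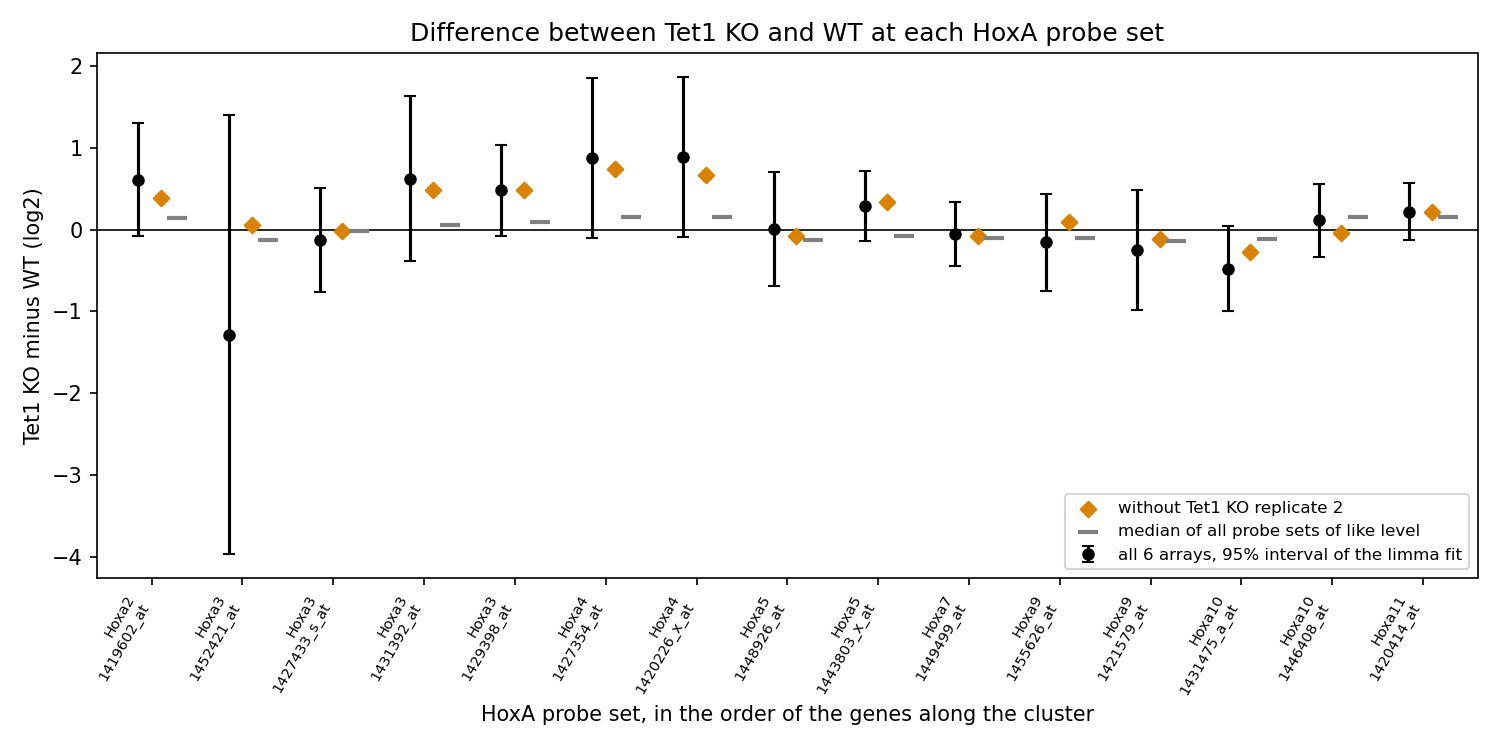
Difference between Tet1 KO and WT (log2) at each HoxA probe set with the 95% interval of the limma fit over all 6 arrays (black), the value without Tet1 KO replicate 2 (orange) and the median of all probe sets of like level (grey). Every interval includes 0, the widest is that of 1452421_at of Hoxa3, and the Hoxa4 probe sets reach 0.87 and 0.89.

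The 3 Tet1 KO arrays differed in where their HoxA values fell relative to the WT range. On Tet1 KO replicate 1, 3 of 15 probe sets lay above all WT arrays and 5 below, where 29.4% and 27% of all probe sets did so. On Tet1 KO replicate 2 the counts were 8 above and 5 below, against 44.9% and 31% of all probe sets. On Tet1 KO replicate 3 they were 10 above and 2 below, against 34% and 26.4%. Of all probe sets at or below the bacterial control level, 37%, 63.7% and 41.8% lay above all WT arrays on the 3 in turn. By mean level, 5 of the 15 HoxA probe sets belong to those. On Tet1 KO replicates 1, 2 and 3 the median deviation of the 15 from WT was -0.04, 0.19 and 0.27, beside 0.01, 0.10 and 0.03 over all probe sets. Tet1 KO replicate 3 was also the Tet1 KO array low in Xist. On WT replicate 3, likewise low in Xist, the HoxA median was -0.05 from the WT mean.

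Partners of HOX proteins of the TALE homeobox class did not pass the test either. In Tet1 KO, 6 of the 10 measured read higher and 4 lower, with a median of 0.11, and 0 passed the adjusted limma test, against 0% of all genes. By sign alone, 56.5% of all genes were higher in Tet1 KO. The share depended on level, at 45.3% of all probe sets above the bacterial control level and 78% of those at or below it. The signs in each list are therefore to be read beside the share for its level. Of the 10 TALE genes, 9 averaged above the bacterial control level in Tet1 KO and 8 in WT. In both groups, 19 of the 21 activators and all 17 repressors described next averaged above that level. Meis1, the partner of HOXA9, averaged 9.26 ± 0.06 in Tet1 KO and 9.18 ± 0.16 in WT (SD, n = 3 each), a difference of 0.08 (SE 0.15), or 0.22 as the mean of its 3 probe sets. With single arrays left out it ran from 0.03 without WT replicate 3 to 0.17 without WT replicate 1, with 0.04 without WT replicate 2 and 0.05 without Tet1 KO replicate 3. Pknox1, another gene of the class, differed by 0.35 (SE 0.16), or 0.11 as the mean of its 3 probe sets. Meis2 differed by 0.47 (SE 0.22) at a level below the bacterial controls, or 0.29 without WT replicate 1 and 0.21 as the mean of its probe sets.

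Among 21 measured activators of HOX transcription, 7 were higher and 14 lower, with a median of -0.11 and 0 past the adjusted limma test. Brpf1, a subunit of the MOZ acetyltransferase complex, differed by -0.45 (SE 0.19), or -0.30 without Tet1 KO replicate 3. Ash2l, a core subunit of MLL complexes, differed by -0.41 (SE 0.19), or -0.25 without Tet1 KO replicate 2 and -0.04 as the mean of its 2 probe sets. Among 17 repressors, 5 were higher and 12 lower, with a median of -0.14, and 0 passed the adjusted test. Among the 28780 probe sets above the bacterial control level, 1417 were lower at an unadjusted limma p under 0.05. Of the repressors, 2 of 17 were, against 3.7% of all genes. The first was Kdm5b, a histone demethylase, which averaged 8.25 ± 0.34 in Tet1 KO and 8.93 ± 0.17 in WT (SD, n = 3 each). It differed by -0.68 (SE 0.22, unadjusted limma p 0.0178), or -0.13 as the mean of its 4 probe sets. The second was Bmi1, a Polycomb subunit that sustains stem cells, which averaged 8.31 ± 0.41 in Tet1 KO and 8.91 ± 0.08 in WT (SD, n = 3 each). It differed by -0.59 (SE 0.23, unadjusted limma p 0.0376), or -0.21 as the mean of its 2 probe sets. The groups did not overlap at 4 of the 17 repressors, these 2 among them, each lower in Tet1 KO, against 6.29% of all probe sets. Of the 28780 probe sets above the bacterial control level, 2527 were lower without overlap. Among the activators the groups did not overlap at Brpf1 and Ash2l, both lower. Higher without overlap was 1 activator, against 9.96% of all probe sets and 1731 of those 28780.

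Genes reported as HOXA9 targets in blood cells went both ways. Of 17 measured, 10 were higher and 7 lower, with a median of 0.02 and 0 past the adjusted limma test. All 17 averaged above the bacterial control level in both groups. Of all probe sets above it, 45.3% were higher in Tet1 KO. Igf1, a growth factor gene, differed by 0.55 (SE 0.22, unadjusted limma p 0.0432), with overlapping groups, and was the 1 gene of the list at an unadjusted p under 0.05, against 3.02% of all genes in that direction. It was 0.25 as the mean of its 4 probe sets. Id2, an inhibitor of E proteins, differed by 0.83 (SE 0.48), or 0.44 when Tet1 KO replicate 1 was left out and 1.40 when Tet1 KO replicate 3 was. Of 5 measured flanking or outer genes of the cluster, 3 were higher and 2 lower, with a median of 0.03. In both groups 3 of the 5 averaged above the bacterial control level. At or below it, 78% of all probe sets were higher in Tet1 KO. Skap2, the adaptor gene on the anterior flank, differed by -0.39 (SE 0.20), or -0.23 without Tet1 KO replicate 2 and -0.12 as the mean of its probe sets. Snx10, a sorting nexin gene farther out, differed by 0.19 (SE 0.17), or 0.08 without Tet1 KO replicate 2, 0.11 with WT replicate 2 left out and 0.0017 as the mean of its probe sets.

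Of 18 HOX genes measured in the B, C and D clusters, 13 were higher and 5 lower, with a median of 0.12 and 0 past the adjusted limma test. Of the 18, 8 averaged above the bacterial control level in Tet1 KO and 7 in WT. Among all 45037 probe sets, 29086 did so in Tet1 KO and 28423 in WT. By sign, 45.3% of all probe sets above that level and 78% of those at or below it were higher in Tet1 KO. Hoxb5, which marks long-term stem cells in mouse marrow, averaged 6.00 ± 0.40 in Tet1 KO and 6.48 ± 0.11 in WT (SD, n = 3 each), a difference of -0.49 (SE 0.23), or -0.25 without Tet1 KO replicate 3. Hoxc4 differed by 0.30 (SE 0.14) below the bacterial control level. In each list 0 genes passed the adjusted test, as did 0% of all genes, and no list was tested as a whole.

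**Figure D4:**
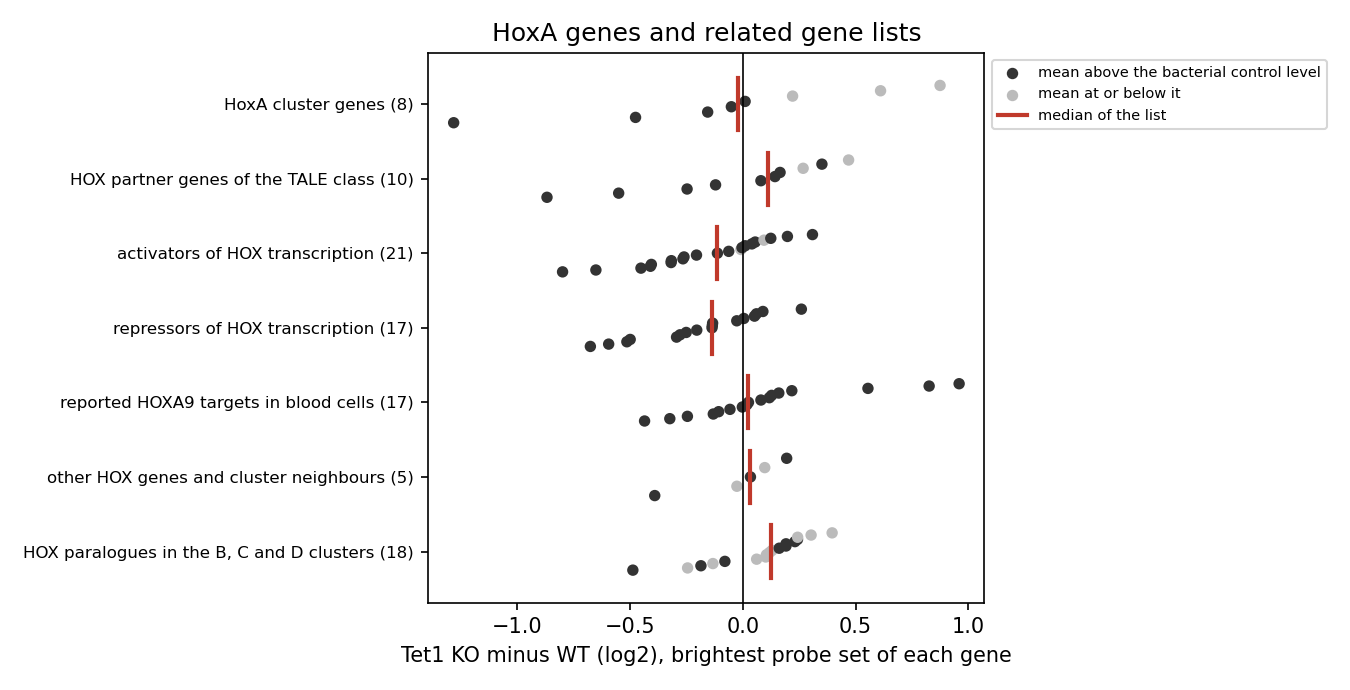
Difference between Tet1 KO and WT (log2) for each gene of the HoxA cluster and of the 6 related lists, by the brightest probe set of each gene, dark where its mean over the 6 arrays is above the bacterial control level and pale where it is not, with red bars at list medians. The list medians lie between -0.14 and 0.12.

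The genes whose pattern over the 6 arrays was most like that of 1455626_at of Hoxa9 were Klhl20, Nfatc2 and Bri3bp. Likeness was the root mean square difference after each probe set was centred on its own mean, among 23929 candidate probe sets above the bacterial control level, and it was 0.03 for Klhl20 and 0.05 for Nfatc2 and Bri3bp. With so many candidates and 6 arrays, such values are a description only. Among the HoxA probe sets the closest to it was 1431475_a_at of Hoxa10, at 0.19, followed by 1449499_at of Hoxa7, at 0.31, and the farthest was 1452421_at of Hoxa3, at 1.33.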

How the data were processed

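RNA from 3 Tet1 KO and 3 WT samples of LSK cells was measured on Affymetrix arrays, with cDNA made from 125 ng, per the labels' protocols. The deposited table holds log2 intensities for 45101 probe sets, a scale taken from their range of 1.50 to 14.58. The background correction, normalization and summarization are not given in the sources used here, but array medians lay within 0.0694, and the values were used as deposited. No probe set carries a detection call, so a bacterial control level from 27 probe sets served as guide to background.

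Gene names came from GEO's platform annotation, in which 34945 of those that are no controls had 1 symbol, 932 several and 9160 none listed. Of the 34945, 34741 (99.4%) matched a RefSeq gene of GRCm38.p6, and 0 symbols changed. The 64 control probe sets were left out of the fit. Tet1 KO minus WT was fitted over all 45037 others with limma 3.58.1 in R 4.3.3 (lmFit and eBayes, genotype as only term, two-sided), with Benjamini-Hochberg adjustment and a threshold of 0.05. The method was tested on simulated data. An exact permutation test of 3 against 3 cannot go below p = 0.1. Genes of the lists were read from the probe set with the highest mean.

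Every HoxA probe set is named, with Tet1, Meis1, the 2 genes of each list with the smallest p and the 3 genes most like Hoxa9. Members and lists were chosen with earlier results of these data known. Alternatives were quantile, equal-median and cyclic loess normalization, intensity trends, array weights, a replicate block, the Xist state, a filter on level, 1 value per gene and leaving out each array. Figures were drawn with matplotlib 3.10.9. The number of arrays limits the precision.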

Additional observations from a re-analysis of the deposited data

How the results depend on the processing

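The count of probe sets past the adjusted limma threshold was 0 in all fits but those with an intensity trend, which called 1 probe set with no gene listed, with or without robust estimation. No HoxA probe set passed it in any fit. At an unadjusted limma p under 0.05 the HoxA count of 0 became 1 with the replicate block, 1 with the Xist state as covariate and 1 with the mean of the probe sets of each gene, each time Hoxa4 on the higher side, where the shares of all features were 1.97%, 2.42% and 3.56%. Leaving out each array gave 0 to 5. There were 5 without Tet1 KO replicate 1, all higher (Hoxa2, 2 probe sets of Hoxa3 and both of Hoxa4), where 5.09% of all probe sets were. The 3 without Tet1 KO replicate 3 were all lower (2 of Hoxa3 and 1 of Hoxa10), where 4.72% were, and the 1 without WT replicate 3 was Hoxa4, higher, where 1.67% were. At each probe set counted here, the array left out was one that narrowed the difference. Dropping such an array widens a difference by construction, so these counts describe the arrays and support no difference. The median HoxA difference of 0.11 was -0.089 among probe sets above the bacterial control level, -0.021 with the brightest probe set of each gene, 0.049 with their mean and 0.023 with array weights. It ran from 0.064 without WT replicate 1 to 0.196 without Tet1 KO replicate 3, and was 0.177 with Tet1 KO replicate 1 left out and 0.172 with WT replicate 3 left out. Over the lists, an unadjusted p under 0.05 was met by 1 higher gene and 2 lower genes, and with the mean of probe sets by 2 and 1.

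Of 15 HoxA probe sets, 8 kept their sign in all 14 alternatives. With quantile normalization and cyclic loess the sign turned for 1449499_at of Hoxa7, to 0.040 and 0.028, and for 1446408_at of Hoxa10, to -0.020 and -0.039, and with array weights for 1448926_at of Hoxa5, to -0.024. Leaving out arrays gave -2.37 to 0.056 for 1452421_at and -0.42 to 0.055 for 1427433_s_at of Hoxa3, -0.18 to 0.29 for 1448926_at of Hoxa5, -0.14 to 0.063 for Hoxa7, -0.28 to 0.089 and -0.50 to 0.0083 for Hoxa9, and -0.043 to 0.24 for 1446408_at of Hoxa10. The cause was not tested.

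Over all probe sets, deviations of same-numbered Tet1 KO and WT arrays from their group means correlated at 0.013, -0.006 and 0.001. Replicate 3 was the array low in Xist in both groups, at 3.82 in Tet1 KO and 4.58 in WT. These correlations cannot show whether the samples were paired, and the fit used no pairing. Signal over background limits Hoxa2, Hoxa4, Hoxa11 and 1446408_at of Hoxa10.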
